A study of Mus musculus with 24 samples.

Results

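Expression of 9 genes of BMP and TGFβ signalling was followed through reprogramming, namely the ligand genes Bmp4, Bmp7 and Tgfb1, the target genes Id1, Id2, Id3 and Id4, and the feedback inhibitors Smad6 and Smad7. They were taken by name from the 37315 genes of the expression table, and all 9 were found in it and passed the filter on low values in every comparison. Bone morphogenetic proteins (BMPs) and transforming growth factor β (TGFβ) are secreted ligands that bind receptor kinases, and the receptors phosphorylate SMAD proteins that enter the nucleus with SMAD4. BMP signals classically switch on the Id genes, and BMP and TGFβ signals switch on Smad6 and Smad7, which encode inhibitory SMADs that block the receptors. ID proteins bind E proteins and keep them from DNA, and in ESCs kept with serum and LIF, BMP4 and the ID proteins are known to hold back neural differentiation.

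The 24 RNA-seq libraries cover 12 populations with 2 libraries each. All cells derive from PaX, a single hybrid 129S1/SvImJ and CAST/EiJ ESC line, with a doxycycline-inducible reprogramming cassette (cMyc, Klf4, Oct4 and Sox2), a truncated Tsix on the M. musculus X chromosome, a Nanog promoter-RFP reporter and an X-GFP reporter in Hprt that marks activity of that X chromosome. NPCs, the neural precursor cells made from these ESCs, were given doxycycline on irradiated male fibroblast feeders, without IFNγ (control) or with 10 ng/ml IFNγ from day 0 to 5. Cells were sorted at day 2 as cells free of the feeder dye, at day 5 as SSEA1+ cells, and at day 7 as SSEA1+ cells that were X-GFP–negative, X-GFP–medium or X-GFP–high, the IFNγ having been withdrawn for the last days before that sort. NPCs and ESCs were the untreated ends of the course. ESCs were grown in serum with LIF, and reprogramming cells in a medium with serum, LIF, ascorbic acid and doxycycline. NPCs were kept in RHBA medium with EGF, bFGF and ROCK inhibitor, so the medium also changed between NPCs and day 2. Serum is a known source of BMP activity. The study's methods call the replicates behind a pluripotency score independent, but do not say whether the 2 libraries of a population came from separate inductions, so p-values measure the spread between these libraries, whose source is not known.

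The genes lie on chromosomes 14 (Bmp4), 2 (Bmp7 and Id1), 7 (Tgfb1), 12 (Id2), 4 (Id3), 13 (Id4), 9 (Smad6) and 18 (Smad7). In GENCODE vM21 on GRCm38, Id1 is at chr2:152736251-152737410 on the plus strand, Id2 at chr12:25093799-25097140 on the minus strand, Id3 at chr4:136143497-136145755 on the plus strand and Bmp4 at chr14:46383520-46390669 on the minus strand. The genes Gm15217 and Gm15222 overlap Bmp4 on the other strand, with at most 5.71 and 30.7 normalized counts in any library, and A330033J07Rik and Gm49291 overlap Id4 on the other strand. The libraries are stranded, but the strand setting of the counting is not given in the sources used here, so reads of these partners cannot be told apart from those of Bmp4 and Id4.

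Promoter windows of 250 bases before and 50 bases after the RefSeq start (build GRCm38.p6) were read for Bmp4, Tgfb1, Id2, Id3, Id4 and Smad6. They were searched on both strands for the BMP SMAD element GGCGCC, the palindromic SMAD box GTCTAGAC, the SMAD core CAGAC and the STAT motif TTCCNGGAA, none of which holds another of them whole. Id2 and Id3 are shown because they moved in opposite directions at day 7, and Smad6 because its window holds the rarest of these motifs. Capitals mark the motifs, and positions are counted from 1 at the RefSeq start, with -1 just before it. The Id2 window is chr12:25096043-25096342 on the minus strand, the Id3 window chr4:136143572-136143871 on the plus strand and the Smad6 window chr9:64022010-64022309 on the minus strand.
Id2: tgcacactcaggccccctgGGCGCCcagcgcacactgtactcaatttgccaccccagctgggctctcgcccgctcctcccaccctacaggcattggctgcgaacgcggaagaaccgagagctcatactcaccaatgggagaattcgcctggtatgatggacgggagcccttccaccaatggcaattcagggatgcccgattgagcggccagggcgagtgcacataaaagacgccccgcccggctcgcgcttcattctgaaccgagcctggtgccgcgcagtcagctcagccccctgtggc
Id3: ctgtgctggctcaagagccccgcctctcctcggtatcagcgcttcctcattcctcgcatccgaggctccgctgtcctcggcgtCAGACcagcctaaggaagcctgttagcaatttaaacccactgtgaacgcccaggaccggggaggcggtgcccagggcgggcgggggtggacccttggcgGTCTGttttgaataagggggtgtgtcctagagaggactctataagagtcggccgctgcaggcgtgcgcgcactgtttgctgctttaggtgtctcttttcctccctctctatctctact
Smad6: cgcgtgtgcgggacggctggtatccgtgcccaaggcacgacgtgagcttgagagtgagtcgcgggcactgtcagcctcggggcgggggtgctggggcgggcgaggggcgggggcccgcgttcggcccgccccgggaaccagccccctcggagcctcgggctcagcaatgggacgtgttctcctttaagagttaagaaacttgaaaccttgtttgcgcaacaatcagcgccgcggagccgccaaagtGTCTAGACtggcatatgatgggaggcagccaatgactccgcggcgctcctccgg

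The Id2 window holds GGCGCC at -231 to -226, a motif found in 11.9% of 32817 promoters of the same length. The Id3 window holds CAGAC at -167 to -163 and its reverse complement GTCTG at -68 to -64, and 49.6% of all promoters hold it on some strand. Smad6 carries GTCTAGAC across its start at -4 to 4, and 0.213% of promoters hold these letters. Id4 holds GGCGCC at -148 to -143, in a window that ends at chr13:48261165, before the GENCODE vM21 start of the gene at 48261228. None of the 4 motifs was found in the windows of Bmp4 and Tgfb1, and TTCCNGGAA, present in 1.15% of promoters, was in none of the 6 windows. These matches describe letters only.

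The libraries held 24746109 to 37056508 reads on genes, and the 9 genes had 16 to 9031 reads per library, the fewest for Tgfb1. Values are given as normalized counts for the first and the second library of a population. The 8 fibroblast markers, which also mark mesenchymal-like cells, summed to 30069 and 42976 in NPCs, to 61082 and 41107 in control cells of day 2 and 30656 and 25079.6 in day 2 IFNγ-treated cells, and to at most 5497 from day 5 on. The 4 Y-linked genes, which only the male feeders should carry, summed to 253 and 218 in day 2 control and 125 and 223 in day 2 IFNγ-treated cells and to at most 12.5 elsewhere. Naive pluripotency markers and neural precursor markers moved along the course in opposite directions, and the naive marker sums were 131 and 84.3 in NPCs and 146483 and 143090.0 in ESCs. In bulk populations a higher level in each cell and a larger share of expressing cells cannot be told apart.

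**Figure D1:**
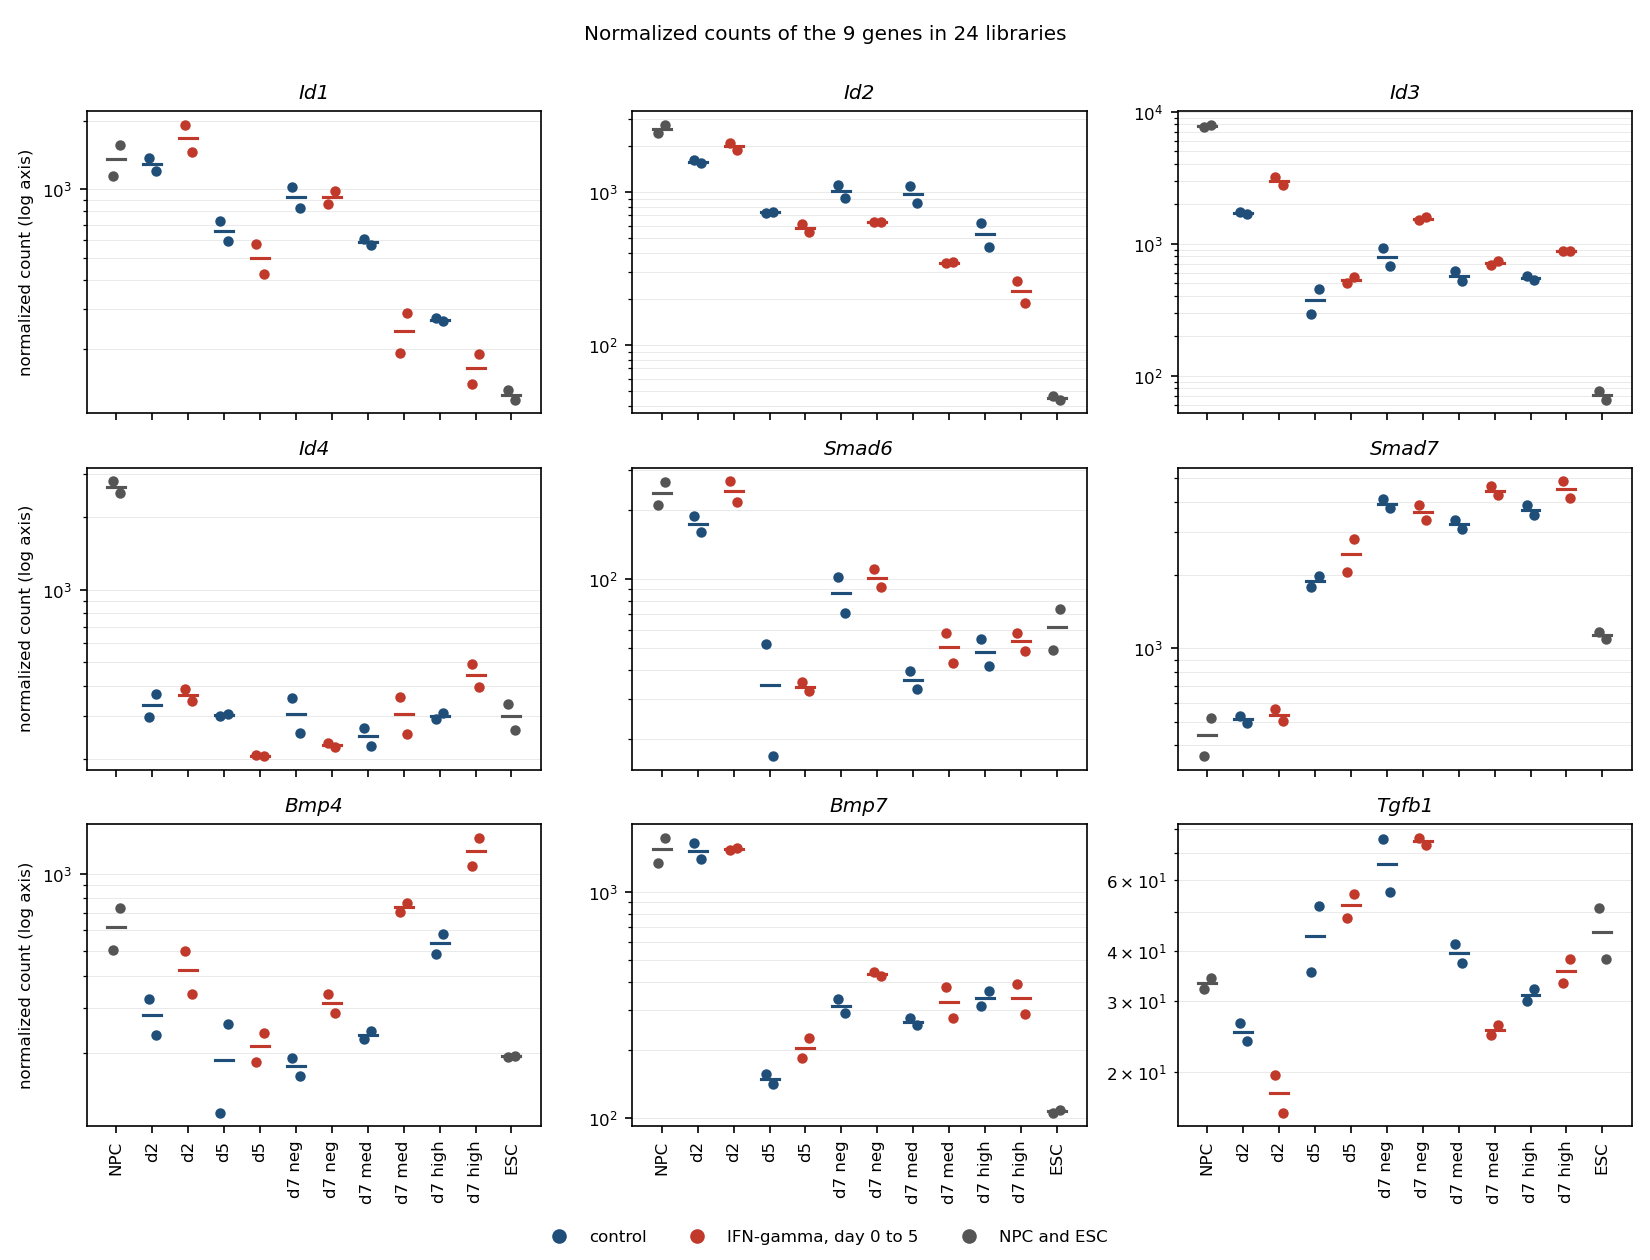
Normalized counts (vertical log axis) of the 9 genes in each of 24 libraries, by population (horizontal axis; d2, d5 and d7 are days); points are libraries, lines the mean of 2, blue is control, red IFNγ-treated and grey NPCs and ESCs. Id3 lies at 7624 and 7933 in NPCs and at 76.7 and 65.7 in ESCs, and Smad7 runs the other way, from 362 and 518 in NPCs to at least 3099 in every day 7 library.

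Between the ends of the course, 8 of the 9 genes passed the limma test (adjusted p below 0.1) in ESCs against NPCs, where 85.6% of all genes tested passed it (42.2% higher and 43.4% lower). All 4 Id genes, Bmp4, Bmp7 and Smad6 were lower in ESCs, and Smad7 was higher. Log2 fold changes, on the log2(normalized count + 1) scale and with their standard errors, were -6.76 ± 0.10 for Id3, -5.81 ± 0.12 for Id2, -3.82 ± 0.15 for Bmp7, -3.40 ± 0.17 for Id1, -3.15 ± 0.14 for Id4, -1.95 ± 0.26 for Smad6, -1.65 ± 0.20 for Bmp4 and 1.39 ± 0.18 for Smad7. Tgfb1 did not pass (log2 fold change 0.40 ± 0.27, adjusted p = 0.208).

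Among the ID genes, Id3 spanned the widest range, with a mean in NPCs 109-fold that in ESCs. Id3 measured 7624 and 7933 in NPCs, then 1745 and 1681 in control cells of day 2, 295 and 450.3 in those of day 5, 919 and 675 in X-GFP–negative, 615 and 518 in X-GFP–medium and 564 and 525 in X-GFP–high control cells, and 76.7 and 65.7 in ESCs. Its level fell at each step to day 5 and rose again in X-GFP–negative cells at day 7, and the NPC libraries stood far above all others. Id2 measured 2431 and 2735 in NPCs, then 1611 and 1535 in control cells of day 2, 726 and 739 in those of day 5, 1103 and 912 in X-GFP–negative, 1087 and 838 in X-GFP–medium and 624 and 437 in X-GFP–high control cells, and 46.2 and 43.8 in ESCs. Id2 was highest in NPCs and lowest in ESCs, and only 2 of its 11 pairs of neighbouring populations, in the order of the means, had overlapping libraries.

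Id1 measured 1143 and 1565 in NPCs, then 1373 and 1203 in control cells of day 2, 728 and 591 in those of day 5, 1019 and 828 in X-GFP–negative, 607 and 569 in X-GFP–medium and 272 and 265 in X-GFP–high control cells, and 132 and 119.9 in ESCs. Id1 overlapped between NPCs and day 2, fell at day 5, and at day 7 was highest in X-GFP–negative and lowest in X-GFP–high cells. Id4 measured 2804 and 2508 in NPCs, then 297 and 371 in control cells of day 2, 300.5 and 305 in those of day 5, 357 and 255 in X-GFP–negative, 269 and 226 in X-GFP–medium and 292 and 309.5 in X-GFP–high control cells, and 337 and 264 in ESCs. For Id4 the libraries of NPCs stood above every other library, and 8 of the 11 pairs of neighbouring populations overlapped, so the order of the other populations was mostly within their spread.

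Of the inhibitory SMADs, Smad6, which mainly blocks BMP receptors, and Smad7, which blocks both branches, peaked at different stages. Smad6 measured 211 and 265 in NPCs, then 187 and 161 in control cells of day 2, 52.2 and 16.9 in those of day 5, 102 and 70.8 in X-GFP–negative, 39.5 and 33.0 in X-GFP–medium and 54.7 and 41.6 in X-GFP–high control cells, and 49.1 and 74.2 in ESCs. Smad7 measured 362 and 518 in NPCs, then 528 and 496 in control cells of day 2, 1787 and 1991 in those of day 5, 4097 and 3761 in X-GFP–negative, 3359 and 3099 in X-GFP–medium and 3876 and 3543 in X-GFP–high control cells, and 1172 and 1094 in ESCs. Smad6 was highest in the NPC and day 2 libraries, while Smad7 was highest at day 7 and fell back in ESCs. They went in opposite directions from day 2 to day 5, rose together from day 5 to X-GFP–negative control cells and fell together from those to X-GFP–medium control cells. Their population means had a Pearson correlation of -0.74 over the 12 populations, the lowest of the 36 pairs among the 9 genes.

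The ligand genes each had a pattern of their own. Bmp7 measured 1347 and 1732 in NPCs, then 1636 and 1398 in control cells of day 2, 157 and 141 in those of day 5, 337 and 291 in X-GFP–negative, 277 and 257 in X-GFP–medium and 313 and 366 in X-GFP–high control cells, and 106 and 108 in ESCs. Bmp7 was high in NPCs and at day 2 and fell at day 5 below every earlier library. Bmp4 measured 504 and 735 in NPCs, then 325 and 235 in control cells of day 2, 117 and 259 in those of day 5, 191 and 163 in X-GFP–negative, 227 and 243 in X-GFP–medium and 488 and 581 in X-GFP–high control cells, and 193 and 195 in ESCs. Both X-GFP–high libraries lay above those of the other control cells of day 2 to 7, and 10 of the 11 neighbouring pairs overlapped.

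Tgfb1 measured 32.1 and 34.3 in NPCs, then 26.5 and 23.8 in control cells of day 2, 35.3 and 51.5 in those of day 5, 75.7 and 55.8 in X-GFP–negative, 41.5 and 37.2 in X-GFP–medium and 29.9 and 32.0 in X-GFP–high control cells, and 51.1 and 38.1 in ESCs. Its highest control libraries were those of X-GFP–negative cells at day 7, and 7 of its 11 neighbouring pairs overlapped.

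From NPCs to day 2 control cells 5 of the 9 genes fell and none rose, where 69.2% of all genes passed the test (31.6% higher and 37.6% lower). These were Id4 (-2.99 ± 0.13, adjusted p = 4.54e-05), Id3 (-2.18 ± 0.07, adjusted p = 3.16e-05), Bmp4 (-1.14 ± 0.24), Id2 (-0.71 ± 0.09) and Smad6 (-0.44 ± 0.19). The Smad6 call was lost without NPC replicate 2 (-0.28), without day 2 control replicate 1 (-0.55) or without day 2 control replicate 2 (-0.33), and also with edgeR, with DESeq2, without a filter on low values and with all 24 libraries in 1 fit. The Y-linked sums were higher at day 2 than in NPCs and the medium differed, and the part of either in these differences was not tested. From day 2 to day 5, 5 genes fell and 2 rose, beside 70.6% of all genes that changed (34.9% higher and 35.6% lower). Bmp7 fell most (-3.33 ± 0.13, adjusted p = 3.98e-06), followed by Smad6 (-2.50 ± 0.48), Id3 (-2.23 ± 0.19), Id2 (-1.10 ± 0.08) and Id1 (-0.97 ± 0.13), while Smad7 (1.88 ± 0.09, adjusted p = 7.92e-06) and Tgfb1 (0.74 ± 0.32) rose. Fibroblast marker sums went over the same step from 61082 and 41107 to 2473 and 1639, and their part in these differences was not tested. The Tgfb1 call was lost without day 2 control replicate 1 (0.82), day 2 control replicate 2 (0.67) or day 5 control replicate 2 (0.48), and also with DESeq2, without a filter on low values and after rescaling to an equal total.

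At day 7 the X-GFP–negative control cells had 6 of the 9 genes higher than day 5 control cells and none lower, where 63.7% of all genes passed the test (34.2% higher and 29.5% lower). Smad6 (1.48 ± 0.47, adjusted p = 0.0286), Id3 (1.11 ± 0.21, adjusted p = 0.00299), Smad7 (1.06 ± 0.08), Bmp7 (1.06 ± 0.15), Id1 (0.49 ± 0.14) and Id2 (0.45 ± 0.11) rose. Without X-GFP–negative control replicate 1 the calls of Smad6 (1.22) and Id1 (0.34) were lost. From X-GFP–negative to X-GFP–medium control cells, with 47% of all genes called (21.9% higher and 25.2% lower), 5 of the 9 fell, namely Smad6 (-1.21 ± 0.23, adjusted p = 0.00178), Tgfb1 (-0.71 ± 0.23), Id1 (-0.64 ± 0.10, adjusted p = 0.000466), Id3 (-0.48 ± 0.13) and Smad7 (-0.28 ± 0.06), and Bmp4 rose (0.41 ± 0.13). The Tgfb1 call was lost without X-GFP–negative control replicate 1 (-0.50) or X-GFP–medium control replicate 2 (-0.63), and the Bmp4 call without the latter library (0.36). Both were also lost with DESeq2, the Bmp4 and Smad7 calls with all 24 libraries in 1 fit, and the Id3 call without a filter on low values.

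From X-GFP–medium to X-GFP–high control cells, with 64.1% of all genes called (31.4% higher and 32.7% lower), Bmp4 rose most (1.18 ± 0.11, adjusted p = 1.96e-07), and Bmp7 (0.34 ± 0.11), Id4 (0.28 ± 0.12) and Smad7 (0.20 ± 0.06) rose by smaller amounts. Id1 (-1.13 ± 0.09, adjusted p = 7.73e-08) and Id2 (-0.87 ± 0.14, adjusted p = 5.26e-05) fell. The smaller calls rested on single libraries: Bmp7 (0.23) was not called without X-GFP–high control replicate 2, Smad7 (0.14) was not called without X-GFP–medium control replicate 2, and Id4 (0.24 and 0.16) was not called when one of these 2 libraries was left out. All 3 were also lost with all 24 libraries in 1 fit, and Id4 with DESeq2 and without a filter on low values. In ESCs 6 of the 9 genes were lower than in X-GFP–high control cells, beside 75.8% of all genes that differed (37.8% higher and 37.9% lower). Id2 (-3.51 ± 0.18, adjusted p = 8.69e-10) and Id3 (-2.92 ± 0.14, adjusted p = 5.29e-10) differed most, before Smad7 (-1.71 ± 0.07), Bmp7 (-1.65 ± 0.14), Bmp4 (-1.45 ± 0.12) and Id1 (-1.09 ± 0.14).

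**Figure D2:**
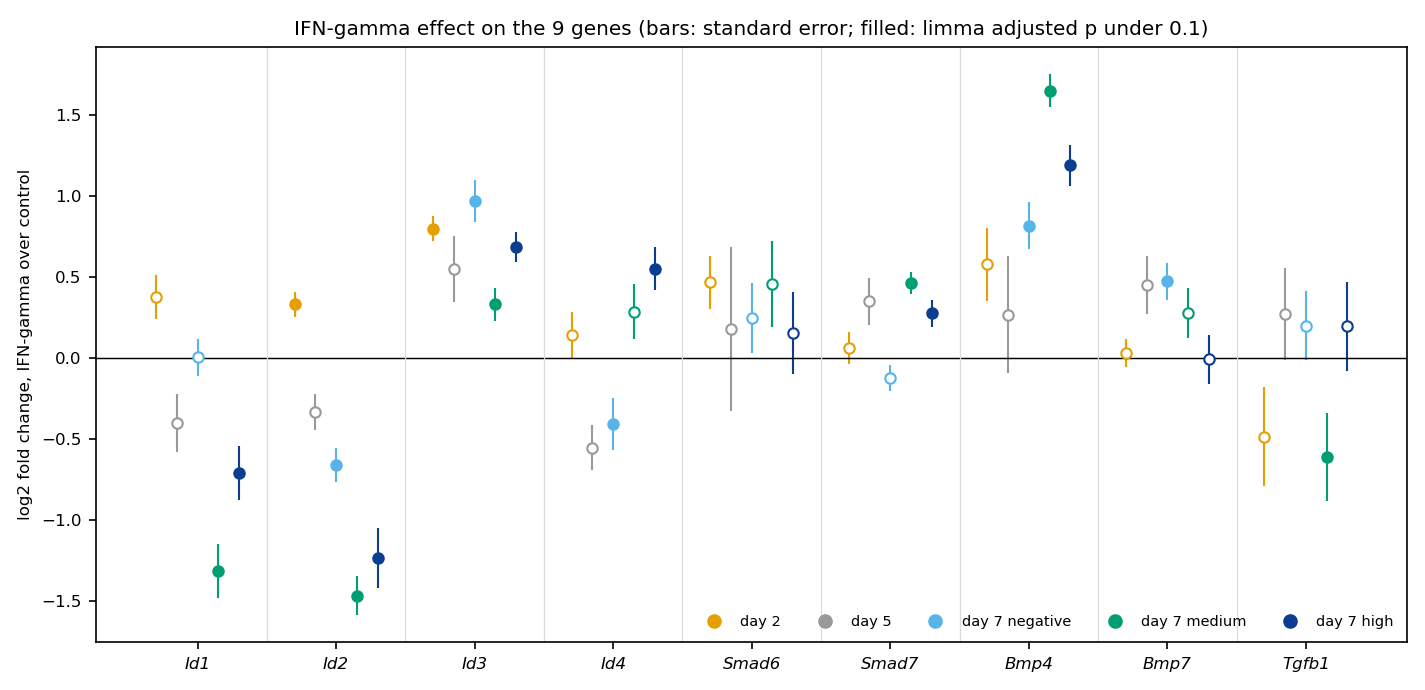
Log2 fold change of IFNγ-treated over control cells (vertical axis, bars are standard errors) for the 9 genes (horizontal axis) at day 2, at day 5 and in the 3 populations of day 7; filled points passed the limma test at an adjusted p below 0.1. Id1 and Id2 lie below 0 in the X-GFP–medium and –high cells while Id3 and Bmp4 lie above 0 in all 5 comparisons.

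To ask how IFNγ touched BMP and TGFβ output, treated cells were compared with control cells at each sort. At day 2, Id3 and Id2 rose, 2 of the 9 genes, while 8.49% of all genes passed the test (5.03% higher and 3.45% lower). Id3 measured 3196 and 2777 with IFNγ against 1745 and 1681 in control cells, a log2 fold change of 0.80 ± 0.08, adjusted p = 0.00287. Id2 measured 2095 and 1867 against 1611 and 1535 (0.33 ± 0.08, adjusted p = 0.0668). Both treated libraries lay above both control libraries for each gene, and the groups were likewise apart for 51.2% of all genes tested. The Id2 call was lost without day 2 control replicate 1 (0.36), day 2 control replicate 2 (0.30) or day 2 IFNγ replicate 1 (0.25), and also without a filter on low values and with all 24 libraries in 1 fit. Id1 (0.38 ± 0.14, adjusted p = 0.189), Bmp4 (0.58 ± 0.23, adjusted p = 0.219), Smad6 (0.47 ± 0.16, adjusted p = 0.179) and Tgfb1 (-0.49 ± 0.30, adjusted p = 0.427) did not pass. Fibroblast marker sums were lower with IFNγ, with medians over the 8 genes of -0.81 on the log2 scale and 3 of the 8 called lower, and their part in the Id changes was not tested.

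At day 5, 0 of the 9 genes passed the test with limma, DESeq2 or edgeR, where limma called 2.18% of all genes (1.65% higher and 0.535% lower). The count depended on the fit. Bmp7, Id3 and Id4 passed with all 24 libraries in 1 fit, where 15.4% of all genes passed. Id1 (-0.62) and Smad7 (0.57) passed without day 5 IFNγ replicate 1. At an unadjusted p below 0.05 there were 4 of the 9 with limma (Bmp7, Id2, Id3 and Id4), beside 2839 of 15133 genes tested. There were 5 each with DESeq2 and edgeR, beside 2204 and 2852 of these 15133 genes. Id3 measured 506 and 562 with IFNγ against 295 and 450.3 in control cells (0.55 ± 0.20, adjusted p = 0.231). Id4 measured 207 and 205 against 300.5 and 305 (-0.55 ± 0.14, adjusted p = 0.139). For both genes treated and control libraries did not overlap, as for 53.3% of all genes tested. Id2 (-0.34 ± 0.11, adjusted p = 0.198), Id1 (-0.40 ± 0.18, adjusted p = 0.283) and Bmp7 (0.45 ± 0.18, adjusted p = 0.252) also missed the threshold.

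In the X-GFP–negative sort of day 7, 5 of the 9 genes changed, 3 up and 2 down, where 61.9% of all genes changed (31.1% higher and 30.8% lower). Id3 rose from 919 and 675 to 1497 and 1589 (0.97 ± 0.13, adjusted p = 0.000250). Bmp4 rose from 191 and 163 to 340.4 and 285 (0.82 ± 0.14, adjusted p = 0.00121), and Bmp7 from 337 and 291 to 445 and 426 (0.47 ± 0.11, adjusted p = 0.00667). In each of these the treated libraries lay above the control libraries, and 79.1% of all genes tested had groups apart. Id2 fell from 1103 and 912 to 634 and 633 (-0.66 ± 0.10, adjusted p = 0.000601), and Id4 from 357 and 255 to 232 and 223 (-0.41 ± 0.16, adjusted p = 0.0571). The Id4 call was lost without X-GFP–negative control replicate 1, where the value was -0.17, and also without a filter on low values and after rescaling to an equal total. Id1 gave a log2 fold change of 0.00 ± 0.11, adjusted p = 0.980, with overlapping libraries.

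In X-GFP–medium cells 6 of the 9 genes changed, beside 62.9% of all genes (33.3% higher and 29.6% lower). Bmp4 rose from 227 and 243 to 709.8 and 768, the largest IFNγ effect among the 9 genes in any of the 5 comparisons (1.65 ± 0.10, adjusted p = 1.35e-06). Id2 fell from 1087 and 838 to 344 and 345 (-1.47 ± 0.12, adjusted p = 6.49e-06), and Id1 from 607 and 569 to 193 and 289 (-1.31 ± 0.17, adjusted p = 0.000106). The control and treated libraries of these 3 genes did not overlap, as was so for 79.2% of all genes tested. Smad7 rose from 3359 and 3099 to 4633 and 4261 (0.46 ± 0.07, adjusted p = 0.000279), Id3 rose from 615 and 518 to 686 and 735 (0.33 ± 0.10, adjusted p = 0.0194), and Tgfb1 fell from 41.5 and 37.2 to 24.6 and 26.1 (-0.61 ± 0.27, adjusted p = 0.0784). The Id3 call was lost without X-GFP–medium control replicate 2 (0.21), and that of Tgfb1 without X-GFP–medium control replicate 1 (-0.53), X-GFP–medium control replicate 2 (-0.69) or X-GFP–medium IFNγ replicate 1 (-0.57), and also with DESeq2 and without a filter on low values.

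In X-GFP–high cells 6 of the 9 genes changed, beside 38.5% of all genes (18.1% higher and 20.4% lower). Bmp4 rose from 488 and 581 to 1070.5 and 1379 (1.19 ± 0.13, adjusted p = 3.83e-05), Id3 from 564 and 525 to 872 and 876 (0.68 ± 0.09, adjusted p = 0.000238), and Id4 from 292 and 309.5 to 491 and 395 (0.55 ± 0.13, adjusted p = 0.00820). Id2 fell from 624 and 437 to 260.5 and 187 (-1.24 ± 0.18, adjusted p = 0.000447), and Id1 from 272 and 265 to 141 and 191 (-0.71 ± 0.17, adjusted p = 0.00737). For all 5 of these genes the groups did not overlap, and neither did they for 67.6% of all genes tested. Smad7 rose from 3876 and 3543 to 4847 and 4155 (0.28 ± 0.08, adjusted p = 0.0273), a call lost without X-GFP–high control replicate 2 (0.21), without a filter on low values and with all 24 libraries in 1 fit. Smad6, Bmp7 and Tgfb1 did not pass the test there.

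At day 7 the naive pluripotency marker sums were higher with IFNγ, at 50976 and 46766 against 28915 and 32134 in X-GFP–negative, 103968 and 96012 against 56849 and 58108 in X-GFP–medium and 137316 and 125160.0 against 109692 and 110062 in X-GFP–high cells. The fibroblast marker sums were lower with IFNγ in the same 3 populations, at 1003 and 961 against 5004 and 4352, 645 and 699 against 5497 and 4919 and 448 and 433 against 2509 and 1998. Most of that difference lay in Dcn, a matrix proteoglycan gene, which measured 219 and 287 against 4299.7 and 3801, 166 and 242 against 5019.6 and 4472 and 41.1 and 119 against 2176 and 1668. Of the fibroblast markers tested, 1 of 6 was called higher and 1 lower in X-GFP–negative, 2 of 6 higher and 3 lower in X-GFP–medium and 0 of 5 higher and 1 lower in X-GFP–high cells. The receptor gene Pdgfrb rose in X-GFP–negative (1.04 ± 0.16) and X-GFP–medium cells (0.92 ± 0.20).

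The neural precursor marker sums were lower with IFNγ in X-GFP–medium cells, at 1558 and 1866 against 2995 and 3252, and in X-GFP–high cells, at 722 and 752 against 1643 and 1579. Nes (-0.88 ± 0.09 and -1.18 ± 0.08) and Pax6 fell in these 2 populations, 2 of the 4 and 2 of the 3 neural markers tested. In X-GFP–negative cells the sums were 5009.7 and 5235 against 4853 and 4792, and 1 of 6 neural markers, Sox1, was called higher. The primitive endoderm marker sums were higher with IFNγ in X-GFP–negative cells, at 1055 and 1188 against 543 and 551, with 4 of 5 markers called higher, and in X-GFP–medium cells, at 617 and 731 against 543 and 531, with 3 higher and 1 lower. In X-GFP–high cells they were 376 and 337 against 438 and 425, with 2 higher and 2 lower. The part of these marker genes in the changes of the 9 genes was not tested. Relative to the ends of the course, Id1 and Id2 went with IFNγ toward the low ESC level in the X-GFP–medium and –high cells, whereas Id3, which is also low in ESCs, and Bmp4 and Smad7 went away from it.

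Whether the IFNγ effect differed between populations was tested as an interaction. It differed between the X-GFP–medium and –negative cells for 5 of the 9 genes, beside 15.7% of all genes (7.31% higher and 8.36% lower). The fall of Id1 was seen in X-GFP–medium but not X-GFP–negative cells (difference of log2 fold changes -1.32 ± 0.24, adjusted p = 0.00856), and Id2 fell by more in X-GFP–medium cells (-0.81 ± 0.18, adjusted p = 0.0194). Bmp4 (0.83 ± 0.18, adjusted p = 0.0169) and Smad7 (0.58 ± 0.11, adjusted p = 0.0114) had the higher effect in X-GFP–medium cells, and Id3 (-0.64 ± 0.19, adjusted p = 0.0621) the lower. The Id3 difference was not called when any of 4 libraries was left out, with values of -0.41 (X-GFP–negative control replicate 2), -0.59 (X-GFP–negative IFNγ replicate 2), -0.51 (X-GFP–medium control replicate 1) and -0.59 (X-GFP–medium IFNγ replicate 1), nor without a filter on low values. With all 24 libraries in 1 fit the differences of Bmp4, Smad7 and Id3 were not called. Between day 5 and day 2, Id2 had the only difference among the 9 genes (-0.67 ± 0.13, adjusted p = 0.0920), beside 0.676% of all genes (0.202% higher and 0.474% lower), and it was not called when any library but day 5 IFNγ replicate 1 was left out, with values from -0.75 to -0.58 over the 8 libraries, nor with a pseudocount of 0.1, in 1 fit of all 24 libraries or without the filter. Between X-GFP–high and X-GFP–medium cells 0 of the 9 genes passed with limma, DESeq2 or edgeR. Of all genes, limma called 12.8% there (4.71% higher and 8.06% lower). At an unadjusted p below 0.05, limma, DESeq2 and edgeR gave 4, 3 and 4 of the 9 genes. Of the 15623 genes tested they gave 3748, 2592 and 3722.

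**Figure D3:**
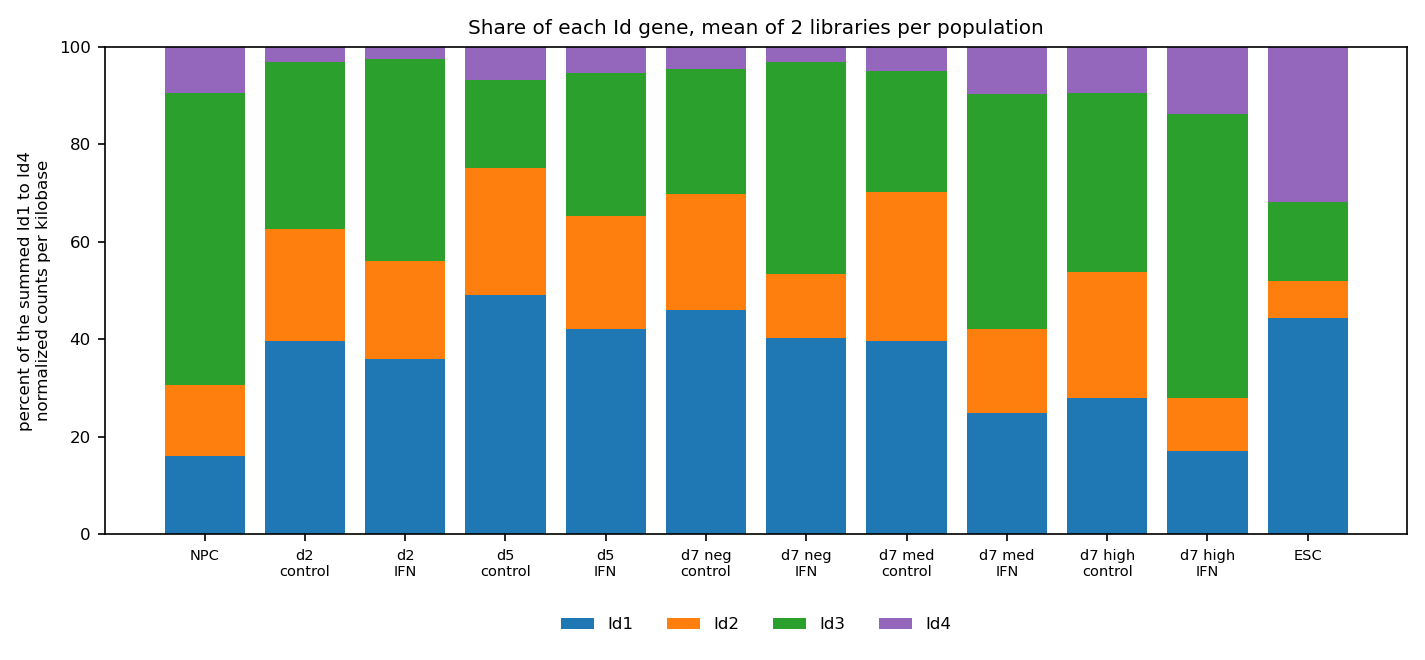
Share of Id1, Id2, Id3 and Id4 (stacked bars, percent) in their summed normalized counts per kilobase of exon model in each population, as the mean of 2 libraries. Id3 takes the largest mean share in NPCs, in X-GFP–high cells with and without IFNγ, and in IFNγ-treated day 2, X-GFP–negative and X-GFP–medium cells. Id1 takes it in the other populations.

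Because levels of different genes can be compared only per length, the 4 Id genes were set side by side as normalized counts per kilobase of exon model. Their sum was 6968 and 7552 per kilobase in NPCs and 263 and 226 in ESCs. Id3 made up 59.9% ± 1.72 (SD, n = 2) of it in NPCs and 16.2% ± 0.0668 in ESCs, where Id1 made up 44.4% ± 1.73. With IFNγ the Id3 share went from 25.6% ± 1.34 to 43.6% ± 0.605 in X-GFP–negative, from 24.7% ± 0.254 to 48.2% ± 1.09 in X-GFP–medium and from 36.6% ± 1.28 to 58.3% ± 0.663 in X-GFP–high cells. The sum went with IFNγ from 1382 and 1183 to 783 and 866 per kilobase in X-GFP–medium cells. It went from 1937 and 1531 to 1898 and 2055 in X-GFP–negative and from 881 and 781 to 842 and 833 in X-GFP–high cells. These sums, the shares and the ratio that follows were chosen after the values had been seen and carry no test.

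The ratio of Id3 to Id2 per kilobase was 1.48 and 1.49 in day 2 control and 2.08 and 2.02 in day 2 IFNγ-treated cells, and 0.552 and 0.830 against 1.12 and 1.40 at day 5. It was 1.14 and 1.01 against 3.22 and 3.41 in X-GFP–negative, 0.770 and 0.842 against 2.72 and 2.90 in X-GFP–medium and 1.23 and 1.64 against 4.55 and 6.37 in X-GFP–high cells. In all 5 comparisons both treated libraries lay above both control libraries. With 2 libraries against 2, an exact two-sided permutation test cannot give a p below 0.333.

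The other genes of the pathway, 77 in 9 lists by role, gave a wider view. Those said to have moved most are among called genes with a mean of at least 100 normalized counts in some group. At day 2, 71 of them were tested, and 6 rose and 7 fell, beside 5.03% of all genes called higher and 3.45% lower. The BMP antagonists Chrd (1.02 ± 0.20, adjusted p = 0.0403) and Nog (0.79 ± 0.14, adjusted p = 0.0277) and the smooth muscle actin gene Acta2 (0.63 ± 0.15) rose most. The BMP ligand gene Bmp6 (-0.86 ± 0.22, adjusted p = 0.0931) was among those that fell most. At day 5, 1 of 66 passed the test, beside 2.18% of all genes. This was Thbs1, whose product can activate latent TGFβ (1.04 ± 0.20, adjusted p = 0.0854), a call lost without day 5 IFNγ replicate 2 (0.98). Without day 2 control replicate 2 none of these 4 genes of day 2 passed the test (Chrd 0.81, Nog 0.77, Acta2 0.39, Bmp6 -0.97). Without day 2 control replicate 1 Nog and Bmp6 did not pass (0.81 and -0.75), without day 2 IFNγ replicate 1 Chrd, Acta2 and Bmp6 (0.86, 0.53 and -1.04), and without day 2 IFNγ replicate 2 Bmp6 (-0.68). The day 2 count of 13 ranged from 5 to 8 when a library was left out.

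At day 7 in X-GFP–negative cells, 24 of 67 pathway genes rose and 22 fell, beside 31.1% of all genes called higher and 30.8% lower. Cer1, an antagonist of Nodal and BMP, rose most (4.46 ± 0.22, adjusted p = 1.43e-06), before the TGFβ-induced matrix gene Tgfbi (1.64 ± 0.21) and the co-receptor gene Tgfbr3 (1.46 ± 0.14), and the receptor gene Acvrl1 (-2.25 ± 0.17, adjusted p = 9.79e-06), the integrin gene Itgb6 (-1.45 ± 0.15) and the latency protein gene Ltbp1 (-1.45 ± 0.09) fell most. In X-GFP–medium cells 13 of 64 rose and 30 fell, beside 33.3% of all genes called higher and 29.6% lower. Ltbp2 (1.33 ± 0.18), Tgfbr3 (0.99 ± 0.15) and the fibronectin gene Fn1 (0.67 ± 0.07) rose most, and Acvrl1 (-2.43 ± 0.17, adjusted p = 2.78e-06), the antagonist gene Nbl1 (-2.33 ± 0.20) and the contractile gene Tagln (-2.22 ± 0.20) fell most. In X-GFP–high cells 9 of 61 rose and 22 fell, with Tgfbi (1.24 ± 0.19) and Ltbp2 (0.64 ± 0.23) among the highest and Acvrl1 (-1.92 ± 0.14, adjusted p = 2.15e-06), Ltbp1 (-1.51 ± 0.08) and the cell cycle inhibitor gene Cdkn2b (-1.50 ± 0.19) lowest. The X-GFP–high count of 31 called stood beside 38.5% of all genes (18.1% higher and 20.4% lower), and it was 20 without X-GFP–high control replicate 1. Ltbp2 in X-GFP–high cells did not pass without X-GFP–high control replicate 1 (0.64), X-GFP–high control replicate 2 (0.63) or X-GFP–high IFNγ replicate 1 (0.29).

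By role, 7 of the 13 receptor and co-receptor genes fell and 4 rose in X-GFP–medium cells, and of the 6 genes for signal-carrying SMADs 3 fell and 0 rose. These counts stand beside 33.3% of all genes called higher and 29.6% called lower there, and the 3 of 6 SMAD genes called are a smaller share than the 62.9% called of all genes. The 3 E protein genes, whose products ID proteins bind, went in both directions there: Tcf3 (0.51 ± 0.07, adjusted p = 0.000185) and Tcf4 (0.23 ± 0.08, adjusted p = 0.0254) rose and Tcf12 (-0.72 ± 0.07, adjusted p = 2.29e-05) fell. The median log2 fold change in X-GFP–medium cells was -0.20 over the 64 pathway genes and 0.04 over all genes tested.

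**Figure D4:**
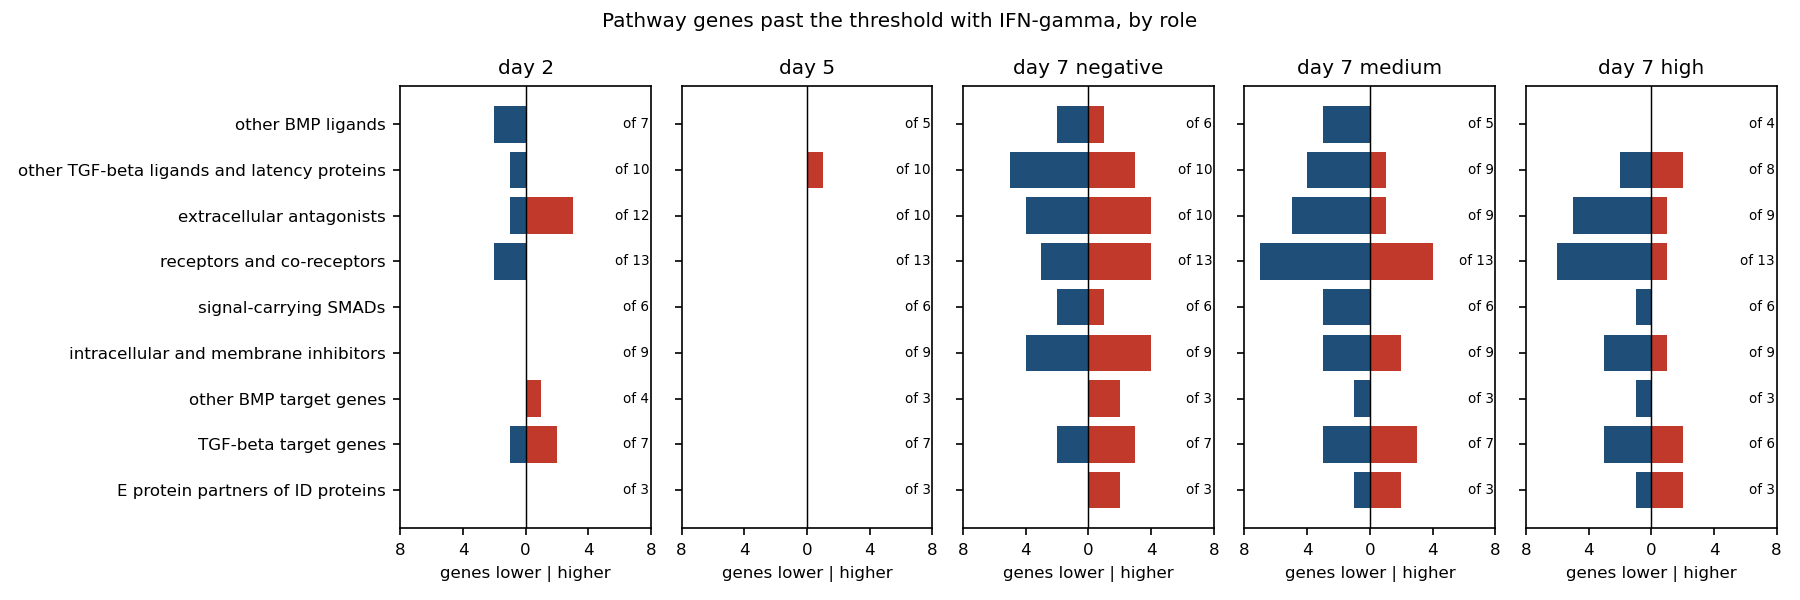
Number of pathway genes, other than the 9, that passed the limma test with IFNγ (horizontal axis, lower to the left in blue and higher to the right in red) by role, in 5 comparisons; the numbers at the right give how many were tested. In X-GFP–medium cells 7 receptor and co-receptor genes are lower and 4 higher, beside 29.6% of all genes called lower and 33.3% higher.

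In ESCs against NPCs, 9 of 69 pathway genes were higher and 54 lower, beside 42.2% of all genes called higher and 43.4% lower. The endoglin gene Eng (4.37 ± 0.23, adjusted p = 1.47e-05) and the latency protein gene Ltbp4 (2.16 ± 0.10) were among the most increased. The integrin gene Itgb8 (-9.13 ± 0.16, adjusted p = 2.01e-06) and Thbs1 (-7.91 ± 0.38) were among the most decreased, and Bmp5 had 0 reads in both ESC libraries against a mean of 661 normalized counts in NPCs, at least 228-fold lower at a floor of 3 reads per library.

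The genes whose pattern over the 12 populations was most like each of the 9 were found by the Pearson correlation of population means on the log2 scale, among 9077 genes with a mean of at least 100 and a range of at least 1 log2 unit. For Id1 these were Tmem123 (0.99) and Cacnb2 (0.99), for Id2 Senp7 (0.98) and Col4a5 (0.98), for Id3 Bbs1 (0.97) and Ift80 (0.96) and for Id4 Vps72 (0.96) and Wnk2 (0.93). For Smad7 they were Rhbdf2 (0.99) and Fcho2 (0.99), and for Smad6 Soga1 (0.96) and Klhdc8b (0.96). Bmp7 was most like Fgfr3 (0.98) and Npr2 (0.98), Bmp4 most like Kmt2c (0.91) and Reps2 (0.89) and Tgfb1 most like Gm38393 (0.86) and Thnsl2 (0.86). Among the 9 themselves, Id1 and Id2 were most alike (0.91). The 12 points share the course from NPCs to ESCs, so these values are descriptions only.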

How the data were processed

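The authors deposited signal values, which are normalized counts per gene. The authors aligned read pairs to mm10, masked at variant positions of both parental strains, with STAR and WASP, counted them with HTSeq 0.6.1 and normalized them with DESeq2. Some libraries had longer reads that the authors trimmed to the shared length. The annotation release and the strand setting are not given in the sources used here. Symbols and coordinates came from GENCODE vM21, in which 95.2% of 37315 identifiers were found. Dividing by the smallest step gave whole reads for 100% of values in every library (tolerance 0.01 reads), 24746109 to 37056508 per library. Allelic proportions, which the study gave for X-linked genes, were not used, since the 9 genes lie on autosomes.

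The main test was limma 3.58.1 in R 4.3.3 (lmFit, eBayes with a trend, two-sided) on log2(normalized count + 1), with the 4 libraries of a comparison or the 8 of an interaction. Genes with a mean above 10 were tested, with Benjamini-Hochberg adjustment over all of them and a threshold of 0.1, and a fold change on this scale understates that of low genes. Alternatives were DESeq2 1.42.0 or edgeR 4.0.16 (quasi-likelihood) on the recovered reads, a replicate block, 1 fit of all 24 libraries, rescaling to an equal total, no filter, a pseudocount of 0.1, and leaving out each library. At day 2, limma called 1332 genes, DESeq2 1116 and edgeR 1345. The scripts were tested on simulated data. The 9 genes, the gene lists and the rules were chosen with earlier results of these data known. Besides the 9 genes, the text names in each IFNγ comparison and in ESCs against NPCs up to 3 pathway genes that rose most and up to 3 that fell most (called, and with a mean of 100 or more in some group), and the 2 genes most like each of the 9. Some genes that this rule names are not reported here. The E protein genes and the Id ratios were singled out after their values were seen. Floors cover counting error only. Promoter windows were from RefSeq, GRCm38.p6, and were read for 6 of the 9 genes. Id1 and Bmp7 had no entry, and Smad7 was not looked up.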

Additional observations from a re-analysis of the deposited data

Results flagged for a closer look

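The effect of IFNγ differed between populations of day 7, by the interaction test of limma, for 5 of the 9 genes. From X-GFP–negative to X-GFP–medium cells the log2 effect was lower for Id1 (-1.32), Id2 (-0.81) and Id3 (-0.64), and higher for Bmp4 (0.83) and Smad7 (0.58). From day 2 to day 5 it was lower for Id2 (-0.67), where 0.676% of all genes were called. The Id2 effect went from an increase past the threshold at day 2 to a value below 0 at day 5 that did not pass. Calls of Bmp4, Id3 and Smad7 were lost with all 24 libraries in 1 fit, that of Id3 also without a filter on low values, and the Id2 difference of day 5 was lost in that fit, without a filter on low values and with a pseudocount of 0.1. At day 7 the naive pluripotency marker sums were higher with IFNγ in all 3 populations, the neural precursor markers Nes and Pax6 lower in X-GFP–medium and –high cells, and 4 of 5 primitive endoderm markers higher in X-GFP–negative and 3 of 5 in X-GFP–medium cells. The fibroblast marker Dcn was lower in all 3 populations, while other fibroblast markers went both ways, and the part of these markers in the differences was not tested.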

How the results depend on the processing

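Of 945 comparisons of a gene's value with that under another setting, 870 kept direction and side of the threshold, 33 lost the call, 29 gained it and 13 reversed. The number of the 9 genes called became 1 (main 2) for day 2 IFNγ and 0 (main 1) for the day 5–day 2 interaction without a filter on low values. Of all genes, 2.9% and 0.348% were then called. With all 24 libraries in 1 fit the number became 1 (main 2) for day 2 IFNγ, 3 (main 0) for day 5 IFNγ and 3 (main 6) for X-GFP–high–medium. It became 0 (main 1) for the day 5–day 2 interaction and 2 (main 5) for the X-GFP–medium–negative interaction. Of all genes, this fit called 8.22%, 15.4%, 50.9%, 1.94% and 9.63% in these comparisons, in this order. The number of the 9 genes called became 0 (main 1) for the day 5–day 2 interaction with a pseudocount of 0.1, where 0.701% of all genes were called. With the replicate number as a block, the labels of which do not say that it pairs libraries, the counts became 5 (main 2) for day 2 IFNγ, 6 (main 0) for day 5 IFNγ, 2 (main 1) for the day 5–day 2 interaction and 2 (main 0) for the X-GFP–high–medium interaction, and it moved no other of the 15 counts by over 1.5 times. The difference between replicates 1 and 2 of each gene correlated, over genes, by -0.118 to 0.313 between the groups compared. The highest values were 0.313 for day 2 IFNγ and 0.255 for day 5 IFNγ, both among the counts that the block raised. No value that passed the test in the main analysis reversed. The reversed values were Smad6 day 5 IFNγ (-0.029 DESeq2, -0.0342 edgeR), Smad7 X-GFP–negative IFNγ (0.0339 rescaled), Id1 X-GFP–negative IFNγ (-0.0098 DESeq2, -0.0055 edgeR), Bmp7 day 2–NPC (0.0664 DESeq2, 0.0616 edgeR), Id1 day 2–NPC (0.0145 DESeq2, 0.0095 edgeR), Bmp4 X-GFP–negative–day 5 (-0.0605 rescaled, -0.13 DESeq2, -0.13 edgeR) and Id2 X-GFP–medium–negative (0.0029 rescaled).

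When 1 library was left out, the lone library of its group being assumed to vary like the others, 554 of 648 values kept direction and side, 35 lost the call, 24 gained it and 35 reversed. The counts of the 9 genes then ran from 1 to 4 for day 2 IFNγ, from 0 to 2 for day 5 IFNγ, from 0 to 1 for the day 5–day 2 interaction and from 0 to 1 for the X-GFP–high–medium interaction. The log2 values that changed sign, none of which had passed the test, ran from -0.0822 to 0.14 for Bmp7 day 2 IFNγ, from -0.0199 to 0.30 for Id4 day 2 IFNγ, from -0.017 to 0.13 for Smad7 day 2 IFNγ, from -0.30 to 0.84 for Bmp4 day 5 IFNγ, from -0.61 to 0.96 for Smad6 day 5 IFNγ, from -0.0184 to 0.42 for Tgfb1 X-GFP–negative IFNγ, from -0.15 to 0.15 for Id1 X-GFP–negative IFNγ, from -0.0158 to 0.51 for Smad6 X-GFP–negative IFNγ, from -0.23 to 0.21 for Bmp7 X-GFP–high IFNγ, from -0.0386 to 0.35 for Smad6 X-GFP–high IFNγ, from -0.20 to 0.17 for Bmp7 day 2–NPC, from -0.28 to 0.17 for Id1 day 2–NPC, from -0.0186 to 0.50 for Smad7 day 2–NPC, from -0.29 to 0.0248 for Id4 day 5–day 2, from -0.55 to 0.59 for Bmp4 X-GFP–negative–day 5, from -0.24 to 0.24 for Id4 X-GFP–negative–day 5, from -0.26 to 0.12 for Id2 X-GFP–medium–negative, from -0.18 to 0.0703 for Id3 X-GFP–high–medium, from -0.19 to 0.16 for Id4 ESC–X-GFP–high, from -0.88 to 0.26 for Bmp4 the day 5–day 2 interaction, from -0.55 to 0.0569 for Id3 the day 5–day 2 interaction, from -1.08 to 0.50 for Smad6 the day 5–day 2 interaction, from -0.42 to 0.0291 for Bmp7 the X-GFP–medium–negative interaction, from -0.0486 to 0.47 for Smad6 the X-GFP–medium–negative interaction and from -0.0255 to 0.49 for Id2 the X-GFP–high–medium interaction.

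Of all genes, limma called 1332 at day 2, 693 without a filter and 4995 with the block. At day 5 it called 330, against 141 without a filter, 2500 with all 24 libraries in 1 fit, 3379 with the block and 912 with DESeq2. The interactions called 107, 2449 and 1995 genes in the order day 5–day 2, X-GFP–medium–negative and X-GFP–high–medium. These became 316, 1565 and 1055 with all 24 libraries in 1 fit and 170, 4190 and 3078 with the block, the last pair 1548 and 897 without a filter, and the first pair 260 and 1525 with DESeq2. Leaving out 1 library gave as few as 651 calls at day 2, 117 to 1823 at day 5, 2741 instead of 6005 in X-GFP–high cells without X-GFP–high control replicate 1, 4535 instead of 7234 for X-GFP–medium–negative without X-GFP–medium control replicate 2, 51 to 461 for the first interaction and as few as 987 and 484 for the others. The other pathway genes called at day 2 numbered 13, against 5 without a filter, 7 with all 24 libraries in 1 fit and 35 with the block, and at day 5 they numbered 1, against 0, 10 and 19, with 2 after rescaling and 5 with DESeq2. Tgfb1 and Smad6 had as few as 16 and 19 reads in a library, and whether depth kept any value from being called was not tested.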
